A study of Rattus norvegicus with 12 samples.

Results

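The 12 libraries of this study form a 2 by 2 design, and the measurement described here is the difference of differences. It is the response to edaravone in stressed cells, which had TDP-43 plus ethacrynic acid, minus the response to edaravone in unstressed cells. For each gene it is (TDP-43 + EA + Eda minus TDP-43 + EA) minus (Eda minus Control) on the log2 scale, called the interaction below, with the groups taken from the sample labels. All 12 of the 12 libraries enter it, 3 per group, and 13230 of 32883 annotated genes had enough counts to be tested. An interaction above 0 means that edaravone moved the gene further up, or less far down, in stressed cells than in unstressed cells, and an interaction below 0 means the reverse.

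The cells were 1464R, an immortalized rat neural stem cell line, differentiated for 4 days and then kept for 48 h in medium without serum. For Control cells the labels name neither a virus nor a drug. Eda cells received 50 μmol/L edaravone, a free-radical scavenger used in amyotrophic lateral sclerosis (ALS). TDP-43 + EA cells were transduced with adenovirus for TDP-43, the RNA-binding protein that aggregates in most ALS, and 24 h later received 20 μmol/L ethacrynic acid (EA), which inhibits glutathione S-transferases and depletes glutathione. TDP-43 + EA + Eda cells received all of these, with edaravone added together with the virus. Per the labels the virus carries a C-terminal fragment of TDP-43, and per the study's methods viruses for the full-length human protein and the fragment were both used. The 2 stressed groups differ from the 2 unstressed ones by virus and by ethacrynic acid at once, so the part of each in the interaction cannot be told apart from these libraries. The study also had cells with TDP-43 alone and with ethacrynic acid alone, outside these 12 libraries. Its supplement reports far fewer changed genes for TDP-43 alone than for ethacrynic acid alone. It also places edaravone's changed genes in similar functional categories in normal and TDP-43 cells given ethacrynic acid. All cells are of 1 line, whether Control and Eda cells received a control virus is not given in the sources used here, and the labels give 3 samples a group without naming their cultures. A figure legend of the study speaks of separate experiments, and no source used here ties a replicate number to one of them. P-values measure the spread between these samples.

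As background, cells answer damaged proteins and oxidants with a few well-known programmes. In the integrated stress response, kinases phosphorylate eIF2α, and the transcription factors ATF4 and CHOP then raise genes of amino acid uptake and tRNA charging. Nrf2, held back by Keap1 at rest, raises antioxidant genes, and HSF1 raises cytosolic chaperones. Asparagine-linked (N-linked) glycans are built as a sugar chain on the lipid dolichol in the endoplasmic reticulum (ER), by the Alg enzymes, from sugar donors such as UDP-N-acetylglucosamine (UDP-GlcNAc), and are then moved to proteins and trimmed in the Golgi. Genes of all these systems appear among those with an interaction.

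Library totals ran from 18979409 to 24642930 counts in the 9 libraries of the first 3 groups. With stress and edaravone they were 17418137 to 43905581, and replicate 1 was the deepest. The trimmed mean of M values (TMM) factors, which adjust each library for its composition, were 1.02 to 1.10 in the first 3 groups and 0.829 to 0.860 in TDP-43 + EA + Eda, where 11.8 to 13.7% of all counts fell on the top 10 genes, against 8.67 to 9.70% elsewhere. Levels are given after this scaling as CPM, the counts set to one common library size. Reads assigned to rat Tardbp, which can include those of the human transgene, had means of 39.1 CPM in Control, 36.6 in Eda, 1376 in TDP-43 + EA and 2573 in TDP-43 + EA + Eda. The 3 TDP-43 + EA + Eda libraries had 3672, 2045 and 2000 CPM and the 3 TDP-43 + EA libraries 1796, 1245 and 1087, so the groups did not overlap and the virus-treated groups matched their labels. The Tardbp interaction was 1.00 ± 0.30 (log2, SE, adjusted p = 0.035 by edgeR), and that call was lost in 17 of 27 alternative settings. It was lost without any 1 of 9 libraries (each Control and Eda library, TDP-43 + EA replicates 2 and 3, TDP-43 + EA + Eda replicate 1). The same held under library totals alone, upper-quartile scaling, no filter on low counts, limma-voom and limma on the TPM values. The largest adjusted p over all settings was 0.17. The higher Tardbp level is a trait of the TDP-43 + EA + Eda group, which enters every interaction value below, and its part in them was not tested. Microglial and vascular markers summed to at most 13.3 CPM in any library, and oligodendrocyte lineage markers to 25827 CPM or more, while 5 of 10 motor neuron markers had no count in Control. The labels call these cells motor neuron-like, and the defining motor neuron genes Mnx1, Slc18a3 and Slc5a7 had no count in any of the 12 libraries.

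By the same test, edaravone moved 4027 genes in stressed cells and 0 in unstressed cells. Of 13230 genes, 2045 (15.5%) had an interaction at an adjusted p of at most 0.05 in edgeR's quasi-likelihood test, 1114 above 0 (8.42%) and 931 below 0 (7.04%), and 3936 (29.8%) had an unadjusted p under 0.05. With an absolute log2 value of at least 1 besides, 629 remained (4.75%), 213 above 0 (1.61%) and 416 below 0 (3.14%), and these are called DEGs below. The calls in stressed cells (30.4%) were 2038 higher (15.4%) and 1989 lower (15.0%) with edaravone, while the count of 0 in unstressed cells (0.0%) came with 539 genes (4.07%) at an unadjusted p under 0.05. DESeq2 called 6 higher and 3 lower in unstressed cells and limma-voom called 0. Among the 1114 genes above 0, 1086 were also called higher in stressed cells, and among the 931 below 0, 891 were also called lower there. The other 28 and 40 genes were not called in stressed cells in that direction. The shares over all genes, 8.42% above 0 and 7.04% below 0, are the background for every list below.

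How little edaravone did alone could be bounded for many of these genes. The 95% interval of Eda over Control lay within 0.5 log2 units of 0 for 920 of the 1114 genes above 0 (82.6%) and for 552 of the 931 below 0 (59.3%), against 52.7% of all genes tested. For the others the 3 libraries a group leave a wider range, and a missing call there does not show that edaravone did nothing. Eda over Control is part of the contrast that called these genes, and the called genes had higher levels in Control. The shares above that of all genes are therefore no separate result about them. Across all 13230 genes the edaravone effect in unstressed cells and that in stressed cells, which share no library, had a Pearson r of -0.0078 and a Spearman rho of -0.0063. This is a description across genes, which are not independent replicates. The 3 TDP-43 + EA + Eda libraries lay wholly above or below the 3 TDP-43 + EA libraries for 1091 of the 1114 and 906 of the 931 genes, where 39.8% of all genes did so. Those same libraries enter the call, so this separation largely follows from it and is no separate support. The genes above 0 had a median interaction of 0.69 log2 units and those below 0 of -0.91, and the median over all genes was -0.02. Median level in Control was 70.1 CPM for the former and 26.6 CPM for the latter, against 21.9 CPM over all genes.

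**Figure D1:**
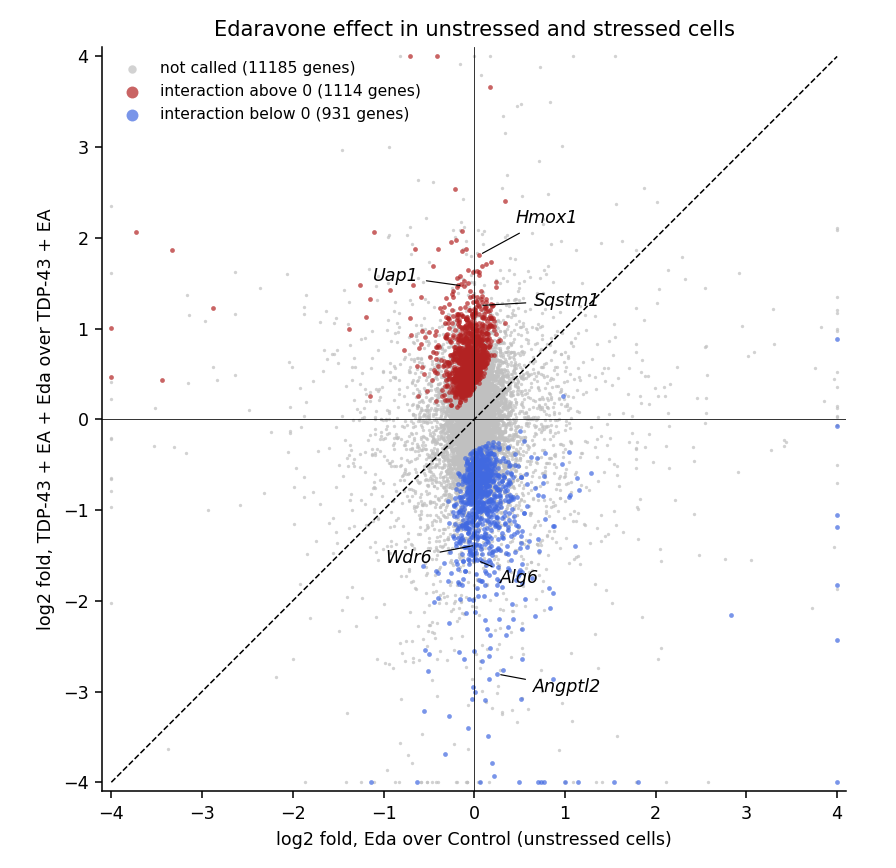
Each point is 1 of 13230 genes, with the log2 fold of Eda over Control on the x axis and of TDP-43 + EA + Eda over TDP-43 + EA on the y axis. Red points have an interaction above 0 (1114 genes), blue points below 0 (931), grey points were not called, and the dashed line marks equal effects. 84 genes beyond 4 log2 units are drawn at the edge. The called genes mostly stand up and down the y axis near 0 on the x axis, with a few at the sides.

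The balance of the 2 directions depended on the scaling. With TMM 54.5% of calls were above 0. Library totals alone gave 377 genes above and 2927 below 0 (11.4% above), upper-quartile factors 818 and 1335 (38.0%), and the deposited TPM values (reads scaled to gene length and library) with a pseudocount of 1 gave 405 and 2785 (12.7%), with one of 0.1 379 and 2805 (11.9%). Library totals alone moved the median of all genes by -0.31 log2 units and the TPM settings by -0.22 and -0.29, and a gene with a value near those sizes can change its call. Leaving out each library in turn left 790 to 1321 genes above 0 and 566 to 1286 below 0. The count below 0 fell by more than 1.5 times without Control replicate 1 (566), Eda replicate 2 (595) or TDP-43 + EA replicate 3 (616).

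Alg6, Wdr6 and Uap1 lead the list, with the smallest p below 0 (Alg6, Wdr6) and above 0 (Uap1). They were singled out with earlier results of these data known, so their values describe the interaction rather than support it. Alg6 (ENSRNOG00000009045, chr5:118418799-118469376 in Rnor 6.0) adds the first glucose to the dolichol-linked sugar chain. Wdr6 (ENSRNOG00000020185, chr8:117358787-117366096) is the partner of the methyltransferase Ftsj1 in 2′-O-methylation of the tRNA anticodon loop, as known from human and yeast. Uap1 (ENSRNOG00000002926, chr13:88463532-88497901) makes UDP-GlcNAc, the donor that N-glycans and O-GlcNAc start from. The 250 bases before their start sites are shown because these are the genes on which the description turns. They come from RefSeq on build GRCr8, at chr5:119520265-119520514 on the plus strand (Alg6), chr8:118153025-118153274 on the minus strand (Wdr6) and chr13:84910240-84910489 on the minus strand (Uap1), and each runs 5′ to 3′ toward the start. Capitals mark matches to any of 3 motifs described further on for stress-response genes, and 1 was found, TGACNNNGC in Alg6, 119 bases before the start.
Alg6: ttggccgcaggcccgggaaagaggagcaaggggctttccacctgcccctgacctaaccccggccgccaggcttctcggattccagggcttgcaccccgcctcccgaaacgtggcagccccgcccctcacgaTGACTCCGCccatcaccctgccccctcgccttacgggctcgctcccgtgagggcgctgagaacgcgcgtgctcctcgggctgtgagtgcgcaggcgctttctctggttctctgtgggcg
Wdr6: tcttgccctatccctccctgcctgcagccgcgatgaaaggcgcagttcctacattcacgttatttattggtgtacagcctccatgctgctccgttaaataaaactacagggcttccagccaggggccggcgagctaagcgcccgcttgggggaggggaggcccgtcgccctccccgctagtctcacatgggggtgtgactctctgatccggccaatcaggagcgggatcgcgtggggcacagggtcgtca
Uap1: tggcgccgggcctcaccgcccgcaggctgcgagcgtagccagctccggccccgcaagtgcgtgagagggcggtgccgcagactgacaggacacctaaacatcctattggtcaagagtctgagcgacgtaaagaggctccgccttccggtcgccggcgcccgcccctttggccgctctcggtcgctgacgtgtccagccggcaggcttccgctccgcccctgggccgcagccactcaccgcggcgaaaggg

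Alg6 was at 79.1, 82.6 and 86.5 CPM in the 3 Control libraries, 78.3, 86.7 and 88.3 in Eda, 78.6, 72.7 and 83.3 in TDP-43 + EA and 26.4, 27.6 and 26 in TDP-43 + EA + Eda. The first 9 libraries overlap one another and the last 3 stand apart, at a fitted fold of 0.34 over TDP-43 + EA. The interaction was -1.58 ± 0.12 (log2, SE, n = 3 a group, adjusted p = 2.9e-05 in edgeR), and edaravone alone changed Alg6 by 0.03 log2 units, with a 95% interval of -0.15 to 0.21.

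Unlike Alg6, Wdr6 also had its TDP-43 + EA libraries below all those of Control, a step that was not tested here. It had 527, 586 and 571 CPM in Control, 537, 583 and 591 in Eda, 375, 307 and 362 in TDP-43 + EA and 127, 141 and 132 in TDP-43 + EA + Eda. The 2 unstressed groups overlap, and the 2 stressed groups each stand below the one before. Its interaction was -1.41 ± 0.12 (adjusted p = 8.3e-05 in edgeR), with 0.02 for edaravone alone (95% interval -0.16 to 0.21).

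Uap1 went the other way. Control libraries had 81.8, 74.6 and 77.6 CPM, Eda 73.6, 70.9 and 71.4, TDP-43 + EA 126, 163 and 123, and TDP-43 + EA + Eda 418, 345 and 374. The stressed groups stand above the unstressed ones, and those with edaravone stand above all others. The interaction was 1.59 ± 0.15 (adjusted p = 1.3e-04 in edgeR), with -0.12 for edaravone alone (95% interval -0.34 to 0.11). All 3 genes kept their call in every one of 27 alternative settings.

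**Figure D2:**
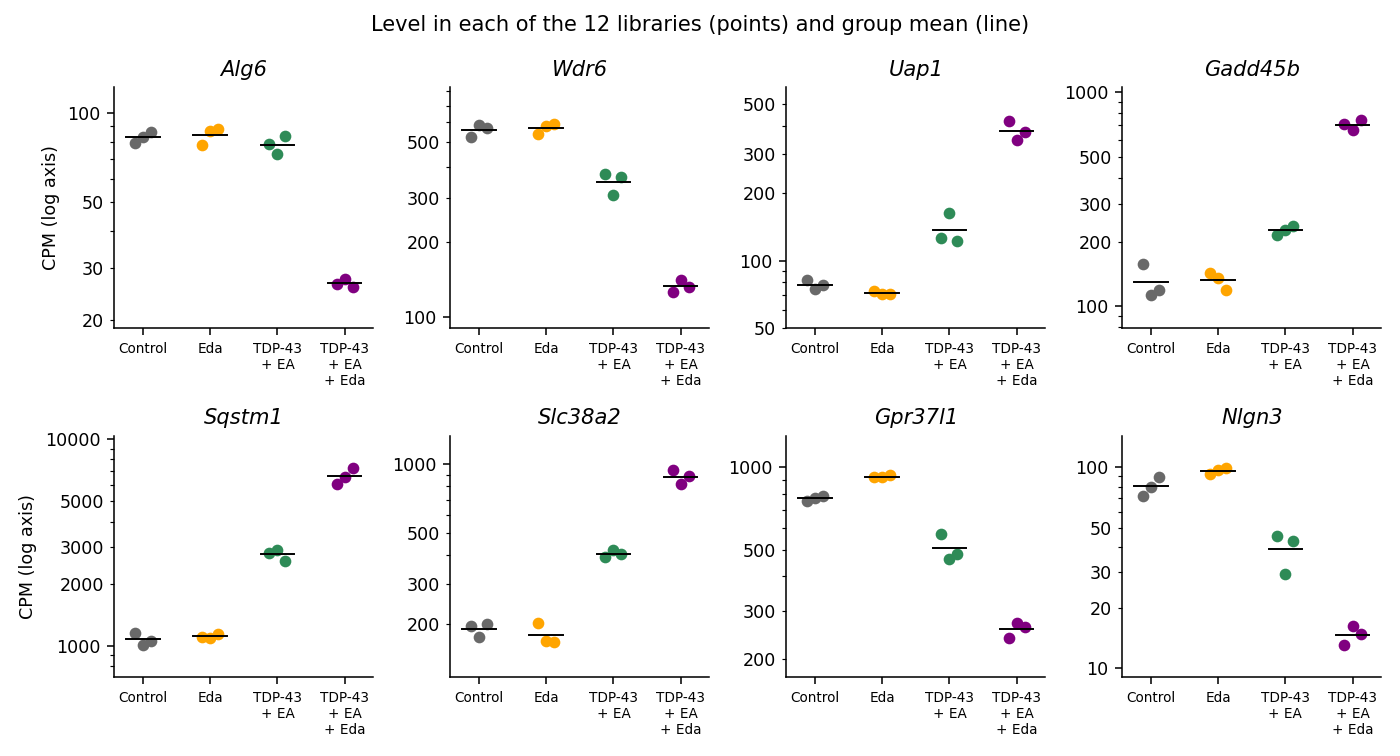
CPM on a log axis for 8 genes, 1 point a library and a line at each group mean of 3 libraries. Alg6, Wdr6, Gpr37l1 and Nlgn3 are lowest in TDP-43 + EA + Eda, for example 26 to 27.6 CPM for Alg6, and Uap1, Gadd45b, Sqstm1 and Slc38a2 are highest there, for example 345 to 418 CPM for Uap1.

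With Uap1, the 10 genes with the smallest p above 0 among DEGs with adequate counts included stress and signalling genes. Gadd45b, a damage-inducible regulator of MAP kinase signalling, was at 157, 113 and 119 CPM in Control, 143, 135 and 119 in Eda, 215, 227 and 238 in TDP-43 + EA and 710, 669 and 739 in TDP-43 + EA + Eda, an interaction of 1.61 ± 0.16. Sqstm1, the autophagy receptor p62, was at 1148, 1012 and 1058, then 1109, 1093 and 1138, then 2825, 2925 and 2571, then 6055, 6544 and 7249 CPM in the same order of groups, an interaction of 1.20 ± 0.13. For both genes the unstressed groups overlap and each stressed group stands above them, with the edaravone libraries on top. Slc38a2, a neutral amino acid transporter that ATF4 raises, followed the same order at 196, 175 and 200, then 201, 168 and 166, then 392, 420 and 404, then 939, 818 and 889 CPM, an interaction of 1.22 ± 0.13. Cebpb, a transcription factor of the same programme, had 1.54 ± 0.18. The others were the receptor Tnfrsf12a (1.45), the glycosyltransferase B4galt5 (1.55), Fbxo30 (1.17), the sorting nexin Snx18 (1.04) and Ypel5 (1.18). The largest adjusted p of these genes was 0.00027, for Ypel5, in edgeR.

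Below 0, the matching genes included membrane receptors, an adhesion protein and a transcription cofactor. Gpr37l1, an orphan receptor of glial cells, was at 754, 773 and 784 CPM in Control, 918, 918 and 934 in Eda, 573, 464 and 484 in TDP-43 + EA and 239, 271 and 262 in TDP-43 + EA + Eda, an interaction of -1.24 ± 0.12. Here the Eda libraries stand above Control, and edaravone alone gave 0.26 log2 units with a 95% interval of 0.08 to 0.44, so the interaction holds a part from both effects, although the unstressed one did not pass the test across genes. Ednrb, the endothelin B receptor, was at 173, 152 and 135, then 169, 164 and 150, then 135, 118 and 117, then 60.5, 58.9 and 54.5 CPM, an interaction of -1.16 ± 0.14. Its unstressed libraries overlap with the highest of TDP-43 + EA, and its 3 TDP-43 + EA + Eda libraries stand below all others. Nlgn3, a postsynaptic adhesion protein, had -1.69 ± 0.20, Tmem14a -1.70 ± 0.19, Gask1a -2.01 ± 0.23, the Mediator subunit Med9 -1.81 ± 0.21, the ubiquitin ligase Rnf26 -1.39 ± 0.17 and the uncharacterized LOC100910528 -1.47 ± 0.17. For Gask1a edaravone alone gave 0.37 (95% interval 0.04 to 0.70), so its value also holds a part from both effects. Tmem14a libraries of TDP-43 + EA did not lie below Control, with means of 35.6, 32.6, 42.6 and 12.1 CPM over the 4 groups in the order above.

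The largest folds sat on low counts. Among DEGs averaging 50 counts or more in some group, Bcar3 led above 0 with 5.20 ± 1.08, from 5, 16 and 10 counts in Control, 3, 0 and 0 in Eda, 19, 11 and 20 in TDP-43 + EA and 124, 39 and 44 in TDP-43 + EA + Eda. Dusp4, a MAP kinase phosphatase, followed with 4.10 ± 0.83, from 4, 6 and 6, then 0, 2 and 0, then 112, 112 and 84, then 522, 135 and 184 counts. In both, the near-empty Eda libraries enter the value, with -3.33 and -2.88 log2 units for edaravone alone against 1.87 and 1.23 in stressed cells. Better measured were Fgd6, an exchange factor for Cdc42, at means of 1.84, 0.859, 4.34 and 18.1 CPM (3.17 ± 0.47), and Sla, an adaptor of receptor signalling, at 5.33, 4.60, 11.3 and 65.0 CPM (2.74 ± 0.50).

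Among the largest folds below 0, 3 genes had no count in any TDP-43 + EA + Eda library. Rnf113a1 had 128, 152 and 67 counts in TDP-43 + EA, Sbk1 145, 24 and 13, and Abca8 9, 17 and 30. Taking 3 counts per library as the limit that 0 allows, for counting error only, they were at least 36.2-fold, 18.2-fold and 5.81-fold lower with edaravone in stressed cells. For Sbk1 this rests on 1 library, since without TDP-43 + EA replicate 1 the limit is 5.99-fold, an alternative chosen after seeing the data. Rnf113a1 is uneven in the unstressed groups, with 62, 11 and 0 counts in Control and 147, 30 and 0 in Eda, and it lost its call without Eda replicate 1 or without TDP-43 + EA + Eda replicate 1, and also with no filter and with limma-voom (largest adjusted p over all settings 0.15). Angptl2, a secreted angiopoietin-like factor, was better measured, at 23.3, 38.5 and 24.8 CPM in Control, 32.2, 43.1 and 27.7 in Eda, 20.8, 14 and 16.4 in TDP-43 + EA and 1.81, 3.81 and 2.02 in TDP-43 + EA + Eda, an interaction of -3.06 ± 0.39 (adjusted p = 0.00038 in edgeR). Sdcbp2 shows that an interaction below 0 need not mean a lower level, with means of 0.0294, 0.640, 12.3 and 22.6 CPM in the 4 groups, and it lost its call without any 1 of 6 libraries (each Control library, Eda replicates 1 and 2, TDP-43 + EA replicate 1), the largest adjusted p over all settings being 0.83.

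Around Alg6, genes that build and transfer the N-glycan precursor leaned to values below 0. Of 37 tested in this list of 40 symbols, 10 were below 0 (27.0%, where 7.04% of all genes were). Above 0 were 2 (5.41%, where 8.42% were). The list's median was -0.17, and -0.12 to -0.48 over the scalings. Library totals alone gave 23 below and 0 above, but also moved the median of all genes by -0.31. The largest upward move of that median was 0.05, so a list median of -0.17 could not cross 0 and its sign is no separate result. Taken from the median of all genes, the list's median was -0.15 with TMM and with library totals alone. The 10 are spread over the pathway, while other chain-building enzymes, such as Alg1, Alg2, Alg3, Alg11, Alg12 and Alg14, were not called. Dhdds (-0.71), which makes the dolichol backbone, and Dolk (-1.04 ± 0.17), which phosphorylates it, come first. Dpagt1 (-0.73 ± 0.13), which adds the first sugar, the mannosyltransferase Alg9 (-0.88 ± 0.16) and the glucosyltransferases Alg6 and Alg8 (-0.93) follow. Dpm2 (-0.49), of the dolichol-phosphate mannose synthase, and Ost4 (-0.46) and Krtcap2 (-0.49), of the oligosaccharyltransferase, were also below 0. Dolk was at 63.2, 76.0 and 87.3 CPM in Control, 67.2, 68.4 and 71.4 in Eda, 39.8, 33.3 and 36.3 in TDP-43 + EA and 16.7, 14.7 and 17.1 in TDP-43 + EA + Eda, so each stressed group stood below the one before it. Against this direction went Dpm1 (0.64), the catalytic mannose synthase subunit, and Alg10 (0.80), which adds the last glucose. The members named with no SE were listed after their values were seen.

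Genes that make sugar donors were called in both directions. In hexosamine and nucleotide sugar synthesis, 5 of 40 tested members were above 0 (12.5%, where 8.42% of all genes were) and 4 below 0 (10.0%, where 7.04% were), shares near those of all genes, with a median of -0.06 (16 below and 2 above with library totals alone). Above 0 with Uap1 were Ugdh, which makes UDP-glucuronate for proteoglycans, at 1.03 ± 0.21, the O-GlcNAc hydrolase Oga at 0.74, the sialic acid enzyme Gne at 0.59 and the mannose phosphate mutase Pmm2 at 0.45. Ugdh was at 129, 157 and 148 CPM in Control, 128, 150 and 149 in Eda, 211, 336 and 244 in TDP-43 + EA and 476, 605 and 507 in TDP-43 + EA + Eda. Below 0 were the fucose kinase Fcsk (-1.50 ± 0.26), the galactose kinase Galk1 (-1.05 ± 0.22), the nucleotide sugar transporter Slc35b4 (-0.79) and Gmppa (-0.68), which restrains GDP-mannose synthesis. Fcsk libraries of TDP-43 + EA lay above Control and those with edaravone fell back among Control, with means of 9.42, 11.9, 20.3 and 9.10 CPM. Gfpt1, the rate-limiting enzyme that feeds Uap1, had 0.36 and was not called (adjusted p = 0.125 in edgeR).

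In the Golgi list, 3 of 46 were above 0 (6.52%, where 8.42% of all genes were) and 7 below 0 (15.2%, where 7.04% were), with a median of -0.13 (16 below with library totals alone). B4galt5, a galactosyltransferase of glycolipids, was at 11.6, 14.6 and 16.4 CPM in Control, 11.7, 11.6 and 11.8 in Eda, 49.8, 53.6 and 49.2 in TDP-43 + EA and 120, 112 and 137 in TDP-43 + EA + Eda. Mgat3, which adds the bisecting GlcNAc of complex N-glycans, had 1.36 ± 0.24, while the heparan sulfate enzyme Extl2 had -1.34 ± 0.18 and the sialyltransferase St6galnac4 -1.14 ± 0.26. By the annotation in the deposited tables, 152 tested genes carry the term for transfer of glycosyl groups, and 26 of them were below 0 (17.1%) and 6 above 0 (3.95%). That term also holds Parp2, Parp3, Parp9 and Parp14, which transfer ADP-ribose, and nucleoside enzymes such as Aprt and Mtap.

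**Figure D3:**
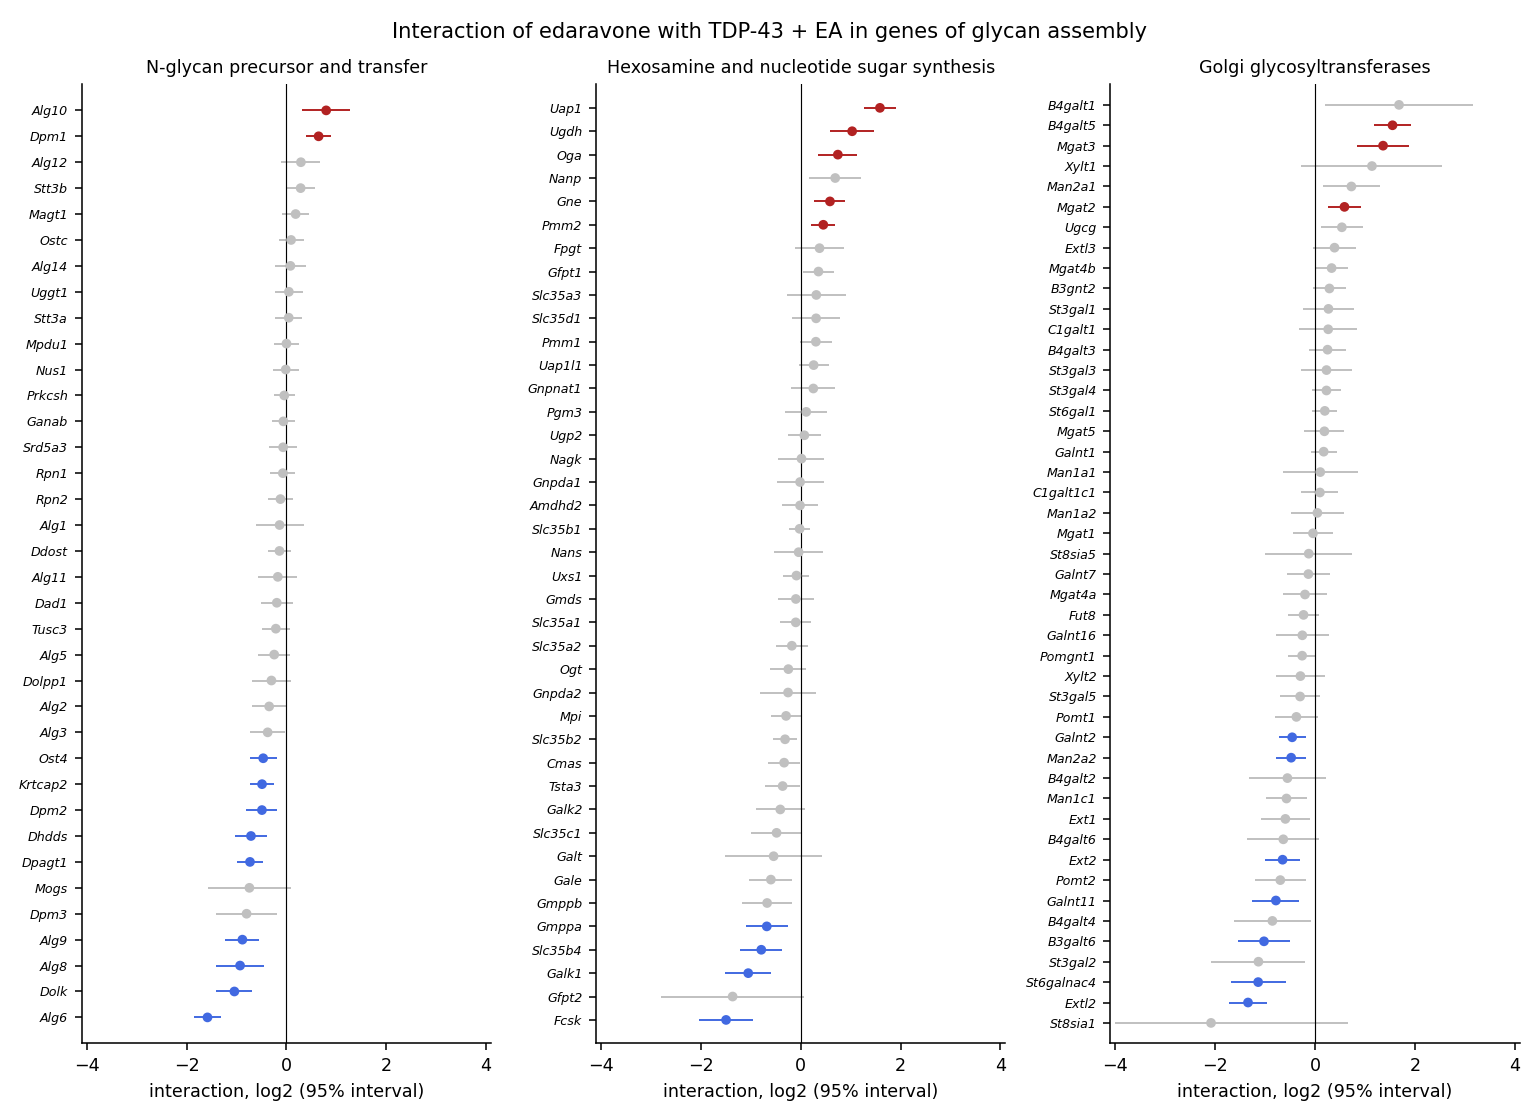
Interaction (log2, x axis) with its 95% interval for the tested members of 3 lists, sorted by value within a list, with 1 member of the first list not shown. Red marks members called above 0, blue those called below 0 and grey those not called. Alg6 at -1.58 and Uap1 at 1.59 are the extremes of the called members in the first 2 panels.

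Around Wdr6, 7 of 62 tested tRNA-modifying genes were below 0 (11.3%) and 2 above 0 (3.23%), a share below 0 closer to the 7.04% of all genes, and the list's median was -0.09 (21 below and 0 above with library totals alone). Besides Wdr6 these include Ctu1 (-1.10 ± 0.20) and Elp6 (-0.64), which act in thiolation and in carboxymethylation of the wobble uridine, Thada (-0.96 ± 0.19), Lage3 (-0.71 ± 0.14), a subunit of the KEOPS complex, Cdk5rap1 (-1.16) and Mettl1 (-1.07). Ctu1 was at 19.7, 22.9 and 25.9 CPM in Control, 22.9, 21.6 and 22.7 in Eda, 22.8, 18.2 and 22.8 in TDP-43 + EA and 9.79, 10.2 and 9.31 in TDP-43 + EA + Eda. As with Alg6, its first 9 libraries overlap and the last 3 stand apart. The enzymes that charge tRNAs went the other way, since 8 of 23 cytosolic aminoacyl-tRNA synthetases were above 0 (34.8%) and 0 below 0. Nars1 (0.95 ± 0.13), Yars1 (0.86 ± 0.13), Cars (0.88 ± 0.14) and Aars (0.63 ± 0.11), the enzymes for asparagine, tyrosine, cysteine and alanine, had the smallest p. Their list median of 0.21 turned to -0.10 under library totals alone and under TPM, where 5 were above and 5 below 0.

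Several synthetases are known targets of ATF4, whose other targets had the highest share of calls above 0 of the 30 lists. Of 31 tested ATF4 and CHOP targets, 21 were above 0 (67.7%, where 8.42% of all genes were) and 0 below 0, with a median of 0.82 that ran from 0.51 to 0.87 over the scalings, with 13 above and 0 below under library totals alone. Atf4 itself was at 367, 331 and 304 CPM in Control, 332, 301 and 268 in Eda, 405, 402 and 359 in TDP-43 + EA and 750, 711 and 673 in TDP-43 + EA + Eda, an interaction of 1.03 ± 0.14 (adjusted p = 0.00047 in edgeR). The CHOP gene Ddit3 had 1.08, the glutathione-degrading enzyme Chac1 1.41 and Slc3a2, the heavy chain of the cystine and leucine transporters, 1.01 ± 0.15. For Chac1 the level under stress without edaravone was close to Control, with means of 33.4, 27.4, 34.1 and 73.9 CPM. Ppp1r15a (0.73), Asns (0.68) and Trib3 (0.97), feedback and target genes of the programme, were also above 0. Median edaravone effect over the list was -0.11 in unstressed and 0.73 in stressed cells.

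ATF4 binds, with C/EBP partners, an element of the letters TGATGNAA. In the 250 bases before the start, on either strand, RefSeq promoters of 6 of 28 matched list members hold it (21.4%), against 1139 of 33469 promoters of all genes (3.40%). Members with it are Chac1, Herpud1, Nupr1, Slc1a4, Slc7a1 and Trib3. For Nrf2 targets the antioxidant element TGACNNNGC was in 9 of 39 (23.1%) against 10.1% of all promoters, and for chaperones the heat shock element (GAA, TTC and GAA with NN after the first and the second triplet) was in 4 of 32 (12.5%) against 0.663%. The antioxidant letters can overlap the AP-1 site TGACTCA, and a match is only a description of letters. The promoter of the member with the smallest p among those with a match is shown for each list, with the matches in capitals and GRCr8 coordinates, at chr3:126795881-126796130 on the plus strand (Chac1), chr12:19959193-19959442 on the minus strand (Mafk) and chr8:50080264-50080513 on the plus strand (Hspa8). Chac1 holds 1 match 167 bases before the start, Mafk 1 at 41, and Hspa8 2 at 213 and 55.
Chac1: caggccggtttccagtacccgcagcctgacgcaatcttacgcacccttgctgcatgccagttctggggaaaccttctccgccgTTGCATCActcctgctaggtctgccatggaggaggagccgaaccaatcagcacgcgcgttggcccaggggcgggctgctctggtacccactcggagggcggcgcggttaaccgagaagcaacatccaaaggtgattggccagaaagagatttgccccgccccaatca
Mafk: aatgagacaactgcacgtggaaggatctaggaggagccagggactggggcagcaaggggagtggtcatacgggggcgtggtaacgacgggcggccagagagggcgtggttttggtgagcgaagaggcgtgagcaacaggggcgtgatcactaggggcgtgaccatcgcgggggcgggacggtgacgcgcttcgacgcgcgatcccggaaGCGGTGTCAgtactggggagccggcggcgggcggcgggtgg
Hspa8: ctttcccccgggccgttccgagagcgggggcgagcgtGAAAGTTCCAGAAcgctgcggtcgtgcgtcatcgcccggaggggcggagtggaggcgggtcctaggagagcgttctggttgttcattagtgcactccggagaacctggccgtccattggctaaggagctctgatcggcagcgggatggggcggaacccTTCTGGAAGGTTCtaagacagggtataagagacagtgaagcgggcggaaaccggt

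Nrf2 targets and regulators had 23 of 46 tested members above 0 (50.0%) and 0 below 0, with a median of 0.62 (15 above and 2 below with library totals alone). Hmox1, heme oxygenase-1, was at 61.4, 55.6 and 44.8 CPM in Control, 63.6, 58.9 and 45.4 in Eda, 6431, 5152 and 5252 in TDP-43 + EA and 22036, 18511 and 18448 in TDP-43 + EA + Eda. Its unstressed libraries overlap, both stressed groups stand far above them, and the edaravone libraries were a fitted 3.50-fold above TDP-43 + EA, an interaction of 1.76 ± 0.20 (adjusted p = 0.00028 in edgeR). Nqo1, a quinone reductase, followed at means of 6.23, 4.63, 352 and 689 CPM (1.39). Txnrd1 (1.08 ± 0.15), thioredoxin reductase, Gsr (0.87 ± 0.18), glutathione reductase, and the glutathione synthesis subunits Gclc (0.65) and Gclm (0.51) were above 0. So were Nfe2l2 (0.82 ± 0.18), which encodes Nrf2, its partners Mafg (1.14 ± 0.13) and Mafk (1.06), and its repressors Bach1 (1.12) and Keap1 (0.48).

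Of 39 tested chaperones and co-chaperones, mostly cytosolic, 25 were above 0 (64.1%) and 0 below 0, with a median of 0.59 (13 above and 0 below with library totals alone). They span the families. Hsp90ab1 (0.98 ± 0.13) and Hsp90aa1 (1.06) are the Hsp90 proteins and Stip1 (1.18 ± 0.16), Fkbp4 (0.94 ± 0.11) and Ahsa1 (0.84) their co-chaperones. Hspa8 (1.20), Hspa1b (1.36), Hsph1 (1.11) and Bag3 (1.32) are of the Hsp70 machine, and Cct4 (0.74 ± 0.11), Cct3 (0.58) and Tcp1 (0.50) of the chaperonin that folds actin and tubulin. Stip1 was at 190, 173 and 192 CPM in Control, 181, 169 and 175 in Eda, 457, 407 and 429 in TDP-43 + EA and 1134, 765 and 880 in TDP-43 + EA + Eda, where the deepest library was the highest. Hspa1b had means of 12.6, 10.3, 6630 and 13860 CPM. Hspa8 and Hspa1b have near-identical copies in the annotation, such as LOC680121 (1.25) and LOC108348108 (0.88), and the split of reads among them is uncertain. Among ER chaperones and unfolded protein response genes 4 of 39 were above 0 (10.3%) and 2 below 0 (5.13%), near the shares of all genes (2 above and 15 below with library totals alone). Hsp90b1 (0.47 ± 0.11) and Hspa5 (0.51), the main ER chaperones, and Dnajc3 (0.84 ± 0.13) were among the 4, and Creld2 had -0.66 ± 0.17.

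**Figure D4:**
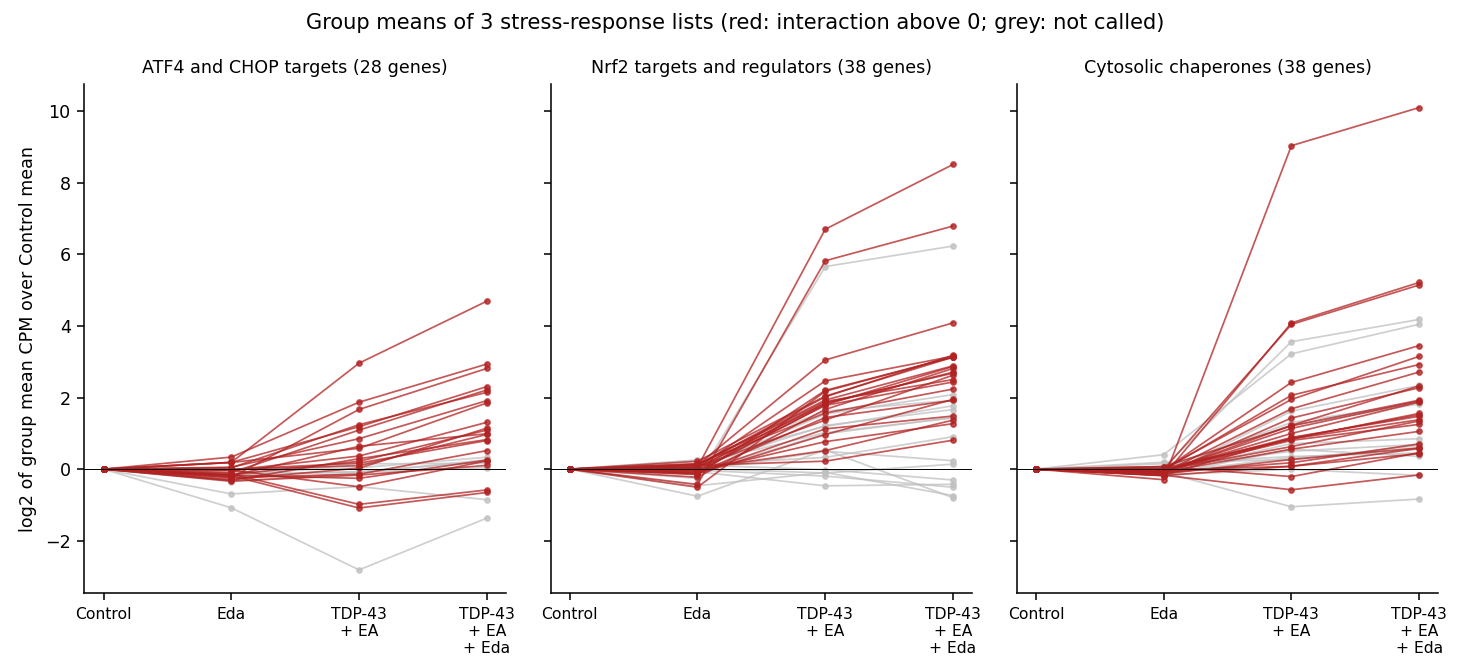
Lines join the 4 group means of a gene as log2 over its Control mean (y axis), for members with a Control mean of at least 1 CPM, which are 28 ATF4 and CHOP targets, 38 Nrf2 genes and 38 chaperones. Red lines have an interaction above 0. Most lines run nearly flat from Control to Eda, spread in TDP-43 + EA and step up again in TDP-43 + EA + Eda.

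Protein and organelle disposal showed smaller values. Among 26S proteasome subunits 9 of 31 were above 0 (29.0%, where 8.42% of all genes were) and 0 below 0, led by Psmd14, Psmd1 and Psmd4 at 0.54 each (SE 0.10 to 0.13). The list median of 0.26 turned to -0.05 under library totals alone, where 0 were above and 2 below 0, so its direction depends on the scaling. Of 49 autophagy and lysosome genes 14 were above 0 (28.6%, where 8.42% of all genes were) and 1 below 0 (2.04%, where 7.04% were). Their median of 0.22 turned to -0.09 under library totals alone, where 6 were above and 8 below 0. Wipi2, which recruits the lipidation machinery to the forming autophagosome, was at 6.07, 8.72 and 9.19 CPM in Control, 5.00, 4.28 and 5.72 in Eda, 15.6, 21.2 and 17.8 in TDP-43 + EA and 54.8, 43.7 and 53.3 in TDP-43 + EA + Eda, an interaction of 2.15 ± 0.26 (adjusted p = 0.00028 in edgeR). Its Eda libraries stand below Control, with -0.68 for edaravone alone (95% interval -1.08 to -0.28). The proton pump subunit Atp6v1h (0.91 ± 0.12), the ubiquitin-selective segregase Vcp (0.62 ± 0.10) and the Atg8-family gene Gabarapl1 (0.96) were also above 0, and Pik3r4 was below (-0.84).

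Phosphoinositide kinases and phosphatases, which set the lipid signals of membranes, had 9 of 60 above 0 (15.0%, where 8.42% of all genes were) and 0 below 0. The list median of 0.07 turned to -0.23 under library totals alone, where 4 were above and 12 below 0. Pi4k2b, a kinase that makes PI4P, was at 16.7, 12.1 and 17.0 CPM in Control, 16.9, 15.1 and 13.4 in Eda, 24.1, 28.4 and 34.0 in TDP-43 + EA and 98.4, 80.8 and 87.4 in TDP-43 + EA + Eda, an interaction of 1.64 ± 0.22. Pip5k1b (1.54 ± 0.20), which makes PI(4,5)P2, and the PI3-kinase subunits Pik3cb (1.04 ± 0.15), Pik3ca (0.64) and Pik3r1 (0.73 ± 0.13) were above 0. Of the 9, only Mtmr2 (0.50) and Inpp5f (0.67) are phosphatases.

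Some genes of growth and damage signalling were also called. Immediate early genes, switched on within minutes of a signal, had 9 of 28 above 0 (32.1%, where 8.42% of all genes were) and 1 below 0 (3.57%, where 7.04% were). Dusp1, Dusp4 and Dusp5, phosphatases that switch off MAP kinases, had 1.60 ± 0.23, 4.10 ± 0.83 and 1.64, Myc 1.02 ± 0.14, Klf6 1.05 ± 0.21 and Ier5 1.00 ± 0.19, while Egr2 had -1.12. Dusp1 was at 50.6, 66.9 and 73.8 CPM in Control, 40.9, 52.6 and 54.1 in Eda, 131, 158 and 147 in TDP-43 + EA and 413, 264 and 344 in TDP-43 + EA + Eda. Of 18 tested p53 targets 6 were above 0 (33.3%, where 8.42% of all genes were) and 0 below 0, with a median of 0.37 (4 above, 1 below and a median of 0.06 with library totals alone). Cdkn1a, the cell cycle inhibitor p21, was at 58.9, 51.8 and 58.9, then 51.7, 46.4 and 51.1, then 63.6, 47.7 and 50.7, then 120, 105 and 137 CPM, so the 3 other groups overlap and the TDP-43 + EA + Eda libraries stand apart (1.34 ± 0.17, adjusted p = 0.00039 in edgeR). Mdm2, the p53 ubiquitin ligase, had 1.02 ± 0.13, Sesn2 0.88 ± 0.16 and the pro-apoptotic Bax 0.45. Among cell cycle genes Ccnd1 (1.26 ± 0.18), cyclin D1, was the 1 of 29 above 0 and Bub1 (-1.40 ± 0.44), a spindle checkpoint kinase, the 1 below 0, with a list median of -0.42. The call of Bub1 was lost without any 1 of 10 libraries (all but Control replicate 1 and TDP-43 + EA + Eda replicate 2, largest adjusted p over all settings 0.28). In DNA repair 7 of 61 were above 0 (11.5%) and 3 below 0 (4.92%), near the shares of all genes (3 above and 15 below with library totals alone), with the excision repair genes Ercc1 (1.20 ± 0.16) and Xpc (0.98 ± 0.17) on one side and Parp2 (-1.08 ± 0.20) on the other.

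The lists of nuclear-encoded respiratory chain genes and of the mitochondrial genome had calls below 0 and none above. Of 49 nuclear-encoded respiratory chain genes 9 were below 0 (18.4%) and 0 above 0, with a median of -0.18 (from -0.12 to -0.48 over the scalings, 35 below with library totals alone). Of all 13230 genes, 2927 were below 0 with library totals alone. Taken from the median of all genes, the list's median was -0.15 in that setting and -0.16 with TMM. Ndufa2 (-0.80 ± 0.16) and Ndufs8 (-0.62 ± 0.14), of complex I, Uqcrfs1 (-0.52 ± 0.12), of complex III, and Atp5f1e (-0.56 ± 0.13), of ATP synthase, had the smallest p. The mitochondrial genome showed the same sign, with 5 of 13 genes below 0 (38.5%) and 0 above 0 and a median of -0.31 (8 below with library totals alone). Mt-nd3 was at 71.8, 64.2 and 63.6 CPM in Control, 67.7, 66.2 and 66.7 in Eda, 53.3, 39.9 and 39.5 in TDP-43 + EA and 22.7, 26 and 22.2 in TDP-43 + EA + Eda (-0.91 ± 0.17, adjusted p = 0.0029 in edgeR). The stressed groups step down in turn without overlap. Counts from the mitochondrial chromosome were 2.45 to 3.13% of a library under stress alone and 2.09 to 2.61% with edaravone added, and these ranges overlap. In whole-culture RNA, fewer cells of a kind and less RNA per cell cannot be told apart. By annotation, 139 of 1144 genes of the mitochondrion were below 0 (12.2%) and 80 above 0 (6.99%), where 7.04% and 8.42% of all genes were. For the inner mitochondrial membrane 33 of 264 were below 0 (12.5%) and 9 above 0 (3.41%). Of 4073 genes annotated to the nucleus, 480 were above 0 (11.8%) and 216 below 0 (5.30%).

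Ribosome and cholesterol genes showed little. Of 46 cytosolic ribosomal protein genes 1 was above 0, Rps2 at 0.37 ± 0.11, and Rps2 lost its call under library totals alone and under upper-quartile factors. Its adjusted p of 0.038 in edgeR also passed the threshold no longer without any 1 of 8 libraries (all but Control replicate 2, TDP-43 + EA replicate 2 and TDP-43 + EA + Eda replicates 2 and 3), and was at most 0.74 over all settings. Cholesterol synthesis had 2 of 24 on each side (8.33% each), with Msmo1 (0.57 ± 0.16) among those above, and Dhcr7 (-0.73 ± 0.20) and Mvk (-0.64 ± 0.17) below, of which Mvk lost its call without Control replicate 1 and Dhcr7 without Control replicate 2, Eda replicate 3 or TDP-43 + EA replicate 3 (largest adjusted p over all settings 0.18 and 0.14). Msmo1 lost its call without any 1 of 8 libraries (all but Control replicate 2, Eda replicate 3, TDP-43 + EA replicate 3 and TDP-43 + EA + Eda replicate 2, largest 0.27). Interferon-stimulated genes had 6 of 22 below 0 (27.3%, where 7.04% of all genes were) and 0 above 0, with a median of -0.68 (12 below with library totals alone). Dtx3l, a ubiquitin ligase that pairs with Parp9, was at 23.7, 24.8 and 24.3 CPM in Control, 27.1, 23.2 and 29.3 in Eda, 17.9, 15.7 and 15.7 in TDP-43 + EA and 3.46, 4.54 and 7.59 in TDP-43 + EA + Eda (-1.82 ± 0.30). Parp9 had -0.87 ± 0.16 and Ifi27 -0.58 ± 0.14, and their TDP-43 + EA means were not above Control. Ifi44 (-1.89 ± 0.38) differed in that, with means of 1.69 CPM in Control, 3.49 in Eda, 4.91 under stress and 2.72 with both.

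**Figure D5:**
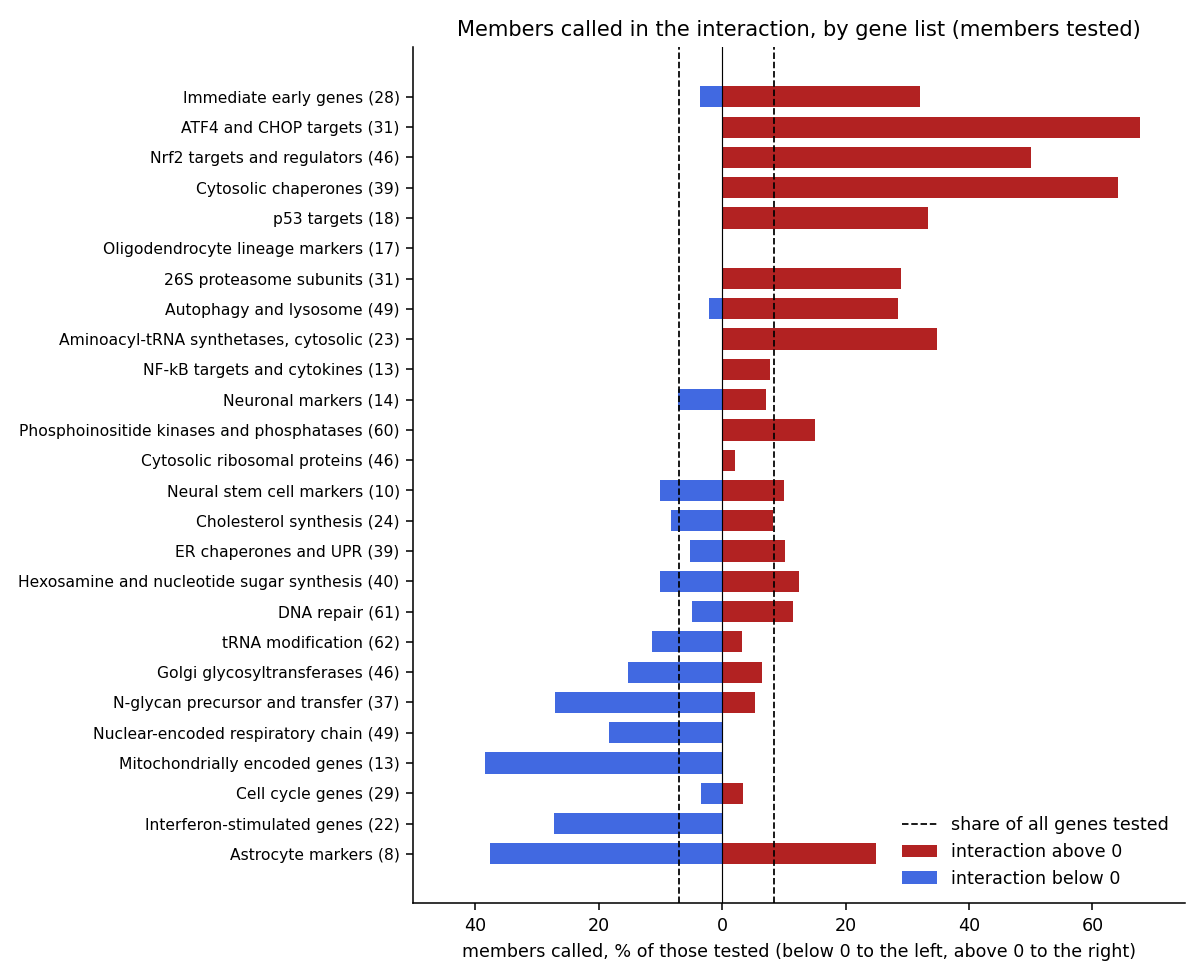
Bars give the share of tested members called above 0 (red, right) and below 0 (blue, left) for 26 gene lists with at least 8 tested members, in percent, sorted by the list's median interaction. Dashed lines mark the shares of all genes, 8.42% and 7.04%. ATF4 and CHOP targets (67.7%) and chaperones (64.1%) reach furthest right, and mitochondrially encoded genes (38.5%) furthest left.

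Calls among cell-type markers went in both directions. Neuronal markers had 1 of 14 on each side (7.14% each, where 8.42% of all genes were above 0 and 7.04% below 0). The call above 0, of Elavl3, was lost without any 1 of 9 libraries (all but Control replicate 2, TDP-43 + EA replicate 3 and TDP-43 + EA + Eda replicate 2, largest adjusted p over all settings 0.34). Nefl, the light neurofilament, was at 33.5, 29.0 and 48.2 CPM in Control, 25.9, 16.9 and 33.2 in Eda, 67.6, 36.2 and 103 in TDP-43 + EA and 9.93, 10.4 and 15.3 in TDP-43 + EA + Eda, an interaction of -2.0 ± 0.46 (adjusted p = 0.010 in edgeR). The TDP-43 + EA libraries vary widely and still do not overlap those with edaravone. Astrocyte markers had 2 of 8 above 0 (25%) and 3 below 0 (37.5%). Gfap, the glial filament, was at 259, 287 and 178, then 338, 354 and 235, then 439, 318 and 279, then 86.3, 172 and 138 CPM (-1.75 ± 0.34), and Aldoc had -0.76 ± 0.14, while Sox9 had 1.28 ± 0.33 and lost its call without Control replicate 1, Eda replicate 2, TDP-43 + EA replicate 3 or TDP-43 + EA + Eda replicate 1 (largest adjusted p over all settings 0.12). Glul, glutamine synthetase, the other one above 0, lost its call without Control replicate 1 or 3, Eda replicate 2 or TDP-43 + EA + Eda replicate 3 (largest 0.18). Of the neural stem cell markers, Notch1 had 0.61 ± 0.13. None of 17 oligodendrocyte lineage markers was called, and Mbp, the myelin basic protein gene, had 0.39 ± 0.18 (adjusted p = 0.15 in edgeR). Summed over each list, the levels of TDP-43 + EA + Eda overlapped those of TDP-43 + EA for neuronal (1159 to 1342 against 1169 to 1336 CPM), astrocyte (1186 to 1406 against 1317 to 1400 CPM) and oligodendrocyte lineage markers (25827 to 34622 against 26498 to 33571 CPM). Microglia and macrophage markers did not overlap, at 7.53 to 13.3 against 4.24 to 7.09 CPM. Of them Aif1, Cx3cr1, Ptprc, Trem2, Tyrobp and C1qa had no count in either group. The part of these markers in the results was not tested.

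Gene length, which the contrast does not use, differed between the directions. The median annotated length was 2640.5 bases for genes above 0, 2098 for genes below 0 and 2294 for all genes tested. Of the genes of 69 to 1328 bases, 3.93% were above 0 and 7.86% below 0, and of those of 3893 bases or more, 9.87% and 5.56%. No test was made of this, since genes are not independent.

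Of 17 genes taken from the study's text, part of which it chose on these same samples, so that they add no independent evidence, 8 were above 0 and 6 below 0. They are not all the genes the study lists, and others, such as Cebpb and Hspa8, were counted in the lists above. Those above 0 beside Hmox1, Sqstm1, Stip1, Gsr, Nfe2l2, Pik3cb and Tardbp include Sod1 (0.69 ± 0.14), superoxide dismutase, at means of 95.1, 92.9, 327 and 513 CPM. The Tardbp call was lost in 17 of 27 alternative settings. Below 0 beside Nefl were Acsl6 (-1.97 ± 0.38), a fatty acid activating enzyme, at 9.83, 8.10, 3.96 and 0.806 CPM, Glrx (-1.35 ± 0.34), glutaredoxin, at 8.12, 7.39, 13.7 and 4.90 CPM, and Alpl, Mt2A and Nup43, whose calls were each lost without any 1 of 6 to 7 libraries, Control replicate 3 and Eda replicate 2 and TDP-43 + EA replicate 1 and TDP-43 + EA + Eda replicate 3 among them for each gene (largest adjusted p over all settings 0.27, 0.13 and 0.21). Plcg2 (0.59 ± 0.28), Actb (-0.12 ± 0.11) and Fig4 (0.11 ± 0.17) were not called.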

How the data were processed

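RNA of 12 libraries of differentiated 1464R cells, 3 per group, was sequenced by the authors after SMART-Seq cDNA synthesis. The submitters' processing notes name bcl2fastq 2.20, DRAGEN, the assembly Rnor 6.0, and R 3.6.0 with DESeq2 1.26.0. The authors deposited expected counts per gene, which are estimated reads without normalization, and they were rounded to whole numbers here. The deposited TPM values, scaled by the authors to gene length and library, were used only in an alternative. The strand setting is not given in the sources used here.

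The fits were made with edgeR 4.0.16 under R 4.3.3, using its default filter (13230 of 19455 genes with a count kept), TMM factors and a robust quasi-likelihood fit over the 4 groups, Benjamini-Hochberg adjusted over all genes tested. Totals were 17418137 to 43905581 counts per library. Libraries of a group differed by more than sampling noise (chi-square per gene 11.3 to 70.9). Intervals are at 95% from the same fit. Intervals and the floor of 3 counts cover no error beyond these samples and counting, since no molecular identifiers are named. Tested on data simulated for the interaction over 13047 genes, edgeR recovered 53.5% of 99 genes with a true log2 of 1 and 77.6% of 98 with a true log2 of 2, and called 4 of 12850 unchanged genes. In that simulation unchanged genes had a common mean in all groups, and few genes changed, equally often up and down. No replicate effect or wider composition shift was added, so it does not cover errors from scaling or from shared replicates.

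The members and lists were chosen with earlier results of these data known. Of 963 symbols in 30 lists, 925 matched a gene symbol of the files, 14 an Entrez number and 2 a synonym, and 22 matched none. Named genes are Alg6, Wdr6 and Uap1, those with the 10 largest values and the 10 smallest p in each direction among DEGs averaging 50 counts or more in some group and no overlap of the stressed groups, up to 4 members of each list by adjusted p, genes the study names and Tardbp. Alternatives were RLE, library-total and upper-quartile scaling, no filter and at least 50 counts in 3 libraries, DESeq2 1.42.0, limma 3.58.1 (voom, and trend on log2(TPM + 1) and log2(TPM + 0.1)), thinning to the smallest total, a replicate block, a fit without robust estimation, and leaving out libraries. A few members of the lists are counted but not reported here by name.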

Additional observations from a re-analysis of the deposited data

Results flagged for a closer look

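The edaravone effect differed between stressed and unstressed cells for 1114 genes above 0 and 931 below 0, by the test of that difference itself. The same test singles out Alg6 (-1.58 log2 units), Wdr6 (-1.41) and Uap1 (1.59). As these are the interaction described in the report, they meet this criterion by construction and are no further result. Groups of 3 libraries were too small to test for libraries that stand apart.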

How the results depend on the processing

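Of 128 named genes with a call, 45 kept it in all 27 alternatives. Their 3453 values under the alternatives lay past the threshold in the same direction 3139 times and in the same direction without passing 313 times, and 1 had the opposite sign, Abca8 at 0.026 with limma on log2(TPM + 1). Counts above and below 0 (1114 and 931) became 377 and 2927 with library totals alone, 405 and 2785 on log2(TPM + 1) and 379 and 2805 on log2(TPM + 0.1), and DESeq2 called 1674 above 0. DEG counts (213 and 416) became 75 and 1030, 74 and 709, and 83 and 997 under the same 3 settings. In stressed cells the counts (2038 and 1989) became 816 and 4520, 873 and 4272, and 831 and 4309. In unstressed cells the count of 0 became 1 higher without the filter and, with DESeq2, 6 higher and 3 lower. Leaving out 1 library or all 4 of a number gave, for genes above 0, 94 to 1321 and, below 0, 66 to 1286. For DEGs these ranges were 57 to 311 and 64 to 528, in stressed cells 986 to 2113 and 776 to 2151, and in unstressed cells 0 to 1 and 0 to 0. Leaving out all 4 libraries of replicate 1, 2 or 3 gave 330 and 173, 1042 and 818, and 94 and 66 genes above and below 0, and the cause of the difference was not tested. No source used here ties a replicate number to an experiment, though the authors' own library numbers fall into the same blocks as the replicate numbers. Deviations of same-numbered libraries correlated at 0.022 to 0.13 over 18 pairs, 3 of them over 0.1, and each library correlated best with its own number, a hint from the data. With the replicate block, which pairs libraries by number, 1496 genes were above and 1210 below 0. The main counts of 1114 and 931 come from a fit without such pairing. Depth limits low genes most: 15 called genes had a group with no count.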
